A study of Mus musculus with 18 samples.

Results

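The *Rhox* genes are a cluster of homeobox genes on the mouse X chromosome. They were taken here as every symbol made of "Rhox", a number and at most 1 copy letter from a to h in the deposited tables, which gave 31 genes of 24346 symbols. By the annotation of the mm10 assembly they lie at chrX:37213804-38129967, a stretch of 0.916 Mb, and form 3 subclusters: alpha with 22 genes (*Rhox1* and the copies of *Rhox2*, *Rhox3* and *Rhox4*), beta with 5 (*Rhox5* to *Rhox9*) and gamma with 4 (*Rhox10* to *Rhox13*). *Rhox* genes encode transcription factors of the reproductive tissues: different members are used in the testis, ovary and placenta, and in the embryo proper most of the cluster is kept silent by DNA methylation. *Rhox5*, also known as Pem, is the founding member and is active in embryonic stem (ES) cells and extra-embryonic tissue. *Rhox6* and *Rhox9*, also known as Psx1 and Psx2, are placental genes and known targets of KDM6A, a histone demethylase that removes repressive methyl groups and is itself encoded on the X chromosome.

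The RNA-seq libraries came from 2 female mouse ES cell lines, each a cross of 2 strains whose SNPs assign reads to a parent, and each grown as wild type (wt) and with *Kdm6a* knocked out by CRISPR/Cas9 (KO). *Tsix*-stop cells, a hybrid of a laboratory strain and *Mus castaneus* (cast), carry a stop signal in *Tsix* on the laboratory-strain allele, called the stop allele here, so that the X carrying it is the one silenced on differentiation. They were sampled as ES cells at D0 and as embryoid bodies at D15, with 2 libraries for each of wt and KO at each day and 1 CRISPR-control library a day (10 in all). The CRISPR control is a clone that went through the editing procedure and kept its *Kdm6a*; the deposited names of these libraries call them KO, their labels call them CRISPR control, and the labels were followed. E8 cells (BL6 x cast) have random X inactivation with a skew towards silencing the BL6 X, and were sampled at D7 and D15 of differentiation, with 2 libraries for each of wt and KO (8 in all). These days are those of the labels; the methods of the study name other days for E8, so each E8 comparison of days, and each of D15 between lines, rests on the labels. Growth was on feeder fibroblasts with LIF and serum, feeders were depleted by attachment before use, and embryoid bodies were made by removing LIF. The *Tsix*-stop KO is a deletion from part of the second to part of the fourth exon of *Kdm6a*, present in a pair of homozygous clones, but the labels do not say which library is which clone; the E8 KO is 1 clone with a deletion of the promoter. The *Tsix*-stop wt libraries are described as biological replicates. For E8 nothing in the sources used here says that replicates were separate cultures, so p-values there measure the spread between libraries, which was very small and may be technical.

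Most copies within the alpha subcluster cannot be read one by one. Reads were 75 bases long, and the first 75 coding bases of *Rhox2* copies, printed 5′ to 3′ from the annotated transcripts with the bases that differ from *Rhox2a* in capitals, show why:
Rhox2a: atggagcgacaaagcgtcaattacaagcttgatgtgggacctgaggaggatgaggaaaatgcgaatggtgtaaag
Rhox2e: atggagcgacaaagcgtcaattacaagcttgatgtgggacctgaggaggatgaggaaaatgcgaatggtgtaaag
Rhox2b: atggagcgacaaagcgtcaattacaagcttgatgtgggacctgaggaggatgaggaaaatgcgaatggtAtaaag
Rhox2d: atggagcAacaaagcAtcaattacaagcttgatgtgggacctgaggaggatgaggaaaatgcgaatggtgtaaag
Rhox2h: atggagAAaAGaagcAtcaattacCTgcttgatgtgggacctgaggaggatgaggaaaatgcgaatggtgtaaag
*Rhox2a* (chrX:37244976-37249686, plus strand) and *Rhox2e* (chrX:37530452-37541813, plus strand) were identical over this window, *Rhox2b* (chrX:37412067-37416806, plus strand) differed from them at 1 base, *Rhox2d* (chrX:37493428-37497623, plus strand) at 2 and *Rhox2h* (chrX:37668989-37673277, minus strand) at 7. Across whole transcripts, between 2.13% and 74.5% of the 75-base windows of a *Rhox2*, *Rhox3* or *Rhox4* copy were found in no other gene. *Rhox1*, *Rhox5* and *Rhox10* to *Rhox13* were unique in each of their windows, *Rhox9* in 95.7%, *Rhox8* in 95.3%, *Rhox6* in 88.4% and *Rhox7a* in 59.0%. The copies of *Rhox2*, *Rhox3* and *Rhox4* were therefore read as 3 sums, and the value of a single copy is uncertain.

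Some libraries stood apart in ways that touch the results. In E8 KO cells, reads from the cast X were absent over most of the chromosome: the median BL6 share of X-linked genes, scaled so that the autosomal median is 50%, was 51.9% to 53.3% within the first 20 Mb, but beyond 20 Mb the median gene was read from BL6 alone in each of the 4 KO libraries, against a BL6 share of 52.4% to 56.3% there in the 4 wt libraries. The *Rhox* cluster lies in the part without cast reads, so E8 KO and wt differed in the X chromosomes read as well as in *Kdm6a*, and the 2 cannot be told apart. *Kdm6a* itself was at 46.7 to 47.8 TPM (transcript abundance scaled to library size) in E8 wt and at 0.0319 or less in E8 KO. In *Tsix*-stop KO its counts (7813 and 3108 at D0, 5487 and 1521 at D15, against 6033 to 11966 in wt) cover the whole gene, most of it outside the deletion, and do not check the label. Markers of other cell types also moved with genotype. Between KO and wt, 14.8% of all genes tested were called in *Tsix*-stop at D15. In E8 this share was 17.5% at D7 and 10.7% at D15, and between days in *Tsix*-stop wt it was 38%. In *Tsix*-stop cells at D15, 11 of 12 visceral and parietal endoderm markers were called lower in KO (summed level 388 to 554 TPM against 2419 to 2545 in wt), as were 9 of 10 fibroblast markers listed for the feeders (228 to 290 against 2813 to 3153 TPM). In wt the latter list was at 26.3 to 26.9 TPM at D0 and rose by a median log2 of 8.34 to D15, so its level at D15 is not a measure of feeders. The CRISPR control at D15 was also low in both lists, at 678 TPM for the endoderm and 150.5 TPM for the fibroblast markers. In E8 cells the endoderm markers went the other way, with 12 of 12 called higher in KO at D7 (3822 to 3930 against 201 to 208 TPM) and 11 of 12 at D15 (925 to 946 against 188 to 203 TPM). Pluripotency markers summed to 9596 to 10459 TPM in *Tsix*-stop wt and 12326 to 15500 TPM in KO at D15 (2 of 10 called higher in KO), and from D0 to D15 5 of 10 fell in wt (median log2 -1.003). In E8 they were at 13755 to 13820 TPM in wt and 4897 to 5025 TPM in KO at D7 (5 of 10 called lower in KO), and at 17302 to 18152 TPM in wt and 8226 to 8435 TPM in KO at D15 (1 of 10 called lower). *Tsix*-stop wt at D0 was at 13919 to 14481 TPM for these markers and at 469 to 499 TPM for the endoderm markers. At both days E8 wt was thus near or above *Tsix*-stop ES cells in the first list and below them in the second. TPM was computed differently in the 2 lines, and how far E8 wt had differentiated was not tested. In these bulk samples, fewer cells of a type and less RNA per cell cannot be told apart, and the part of these shifts in the results below was not tested.

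The expressed members were few. In wt or KO cells, 8 members reached a group mean of 1 TPM in *Tsix*-stop and 5 in E8, and in both lines nearly all *Rhox* RNA came from the beta subcluster. *Tsix*-stop levels were computed from the counts per exon length, and E8 levels are the deposited TPM. At D15 the order of mean levels was *Rhox5*, *Rhox6*, *Rhox9*, *Rhox1* and *Rhox13* in wt cells of both lines. In *Tsix*-stop wt at D15 these were at 1106 and 1108, 381 and 405, 137 and 142, 13.2 and 13.8, and 7.51 and 8.36 TPM. The libraries of neighbouring genes in this order did not overlap. E8 wt at D15 had *Rhox5* at 339 and 342 TPM, *Rhox6* at 93.6 and 94.1, *Rhox9* at 85.3 and 90.2, *Rhox1* at 2.41 and 1.94, and *Rhox13* at 1.77 and 1.94. There the libraries of *Rhox1* and *Rhox13* overlapped. Another 6 copies of *Rhox2* reached 1 TPM in the CRISPR-control library at D0 alone.

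**Figure D1:**
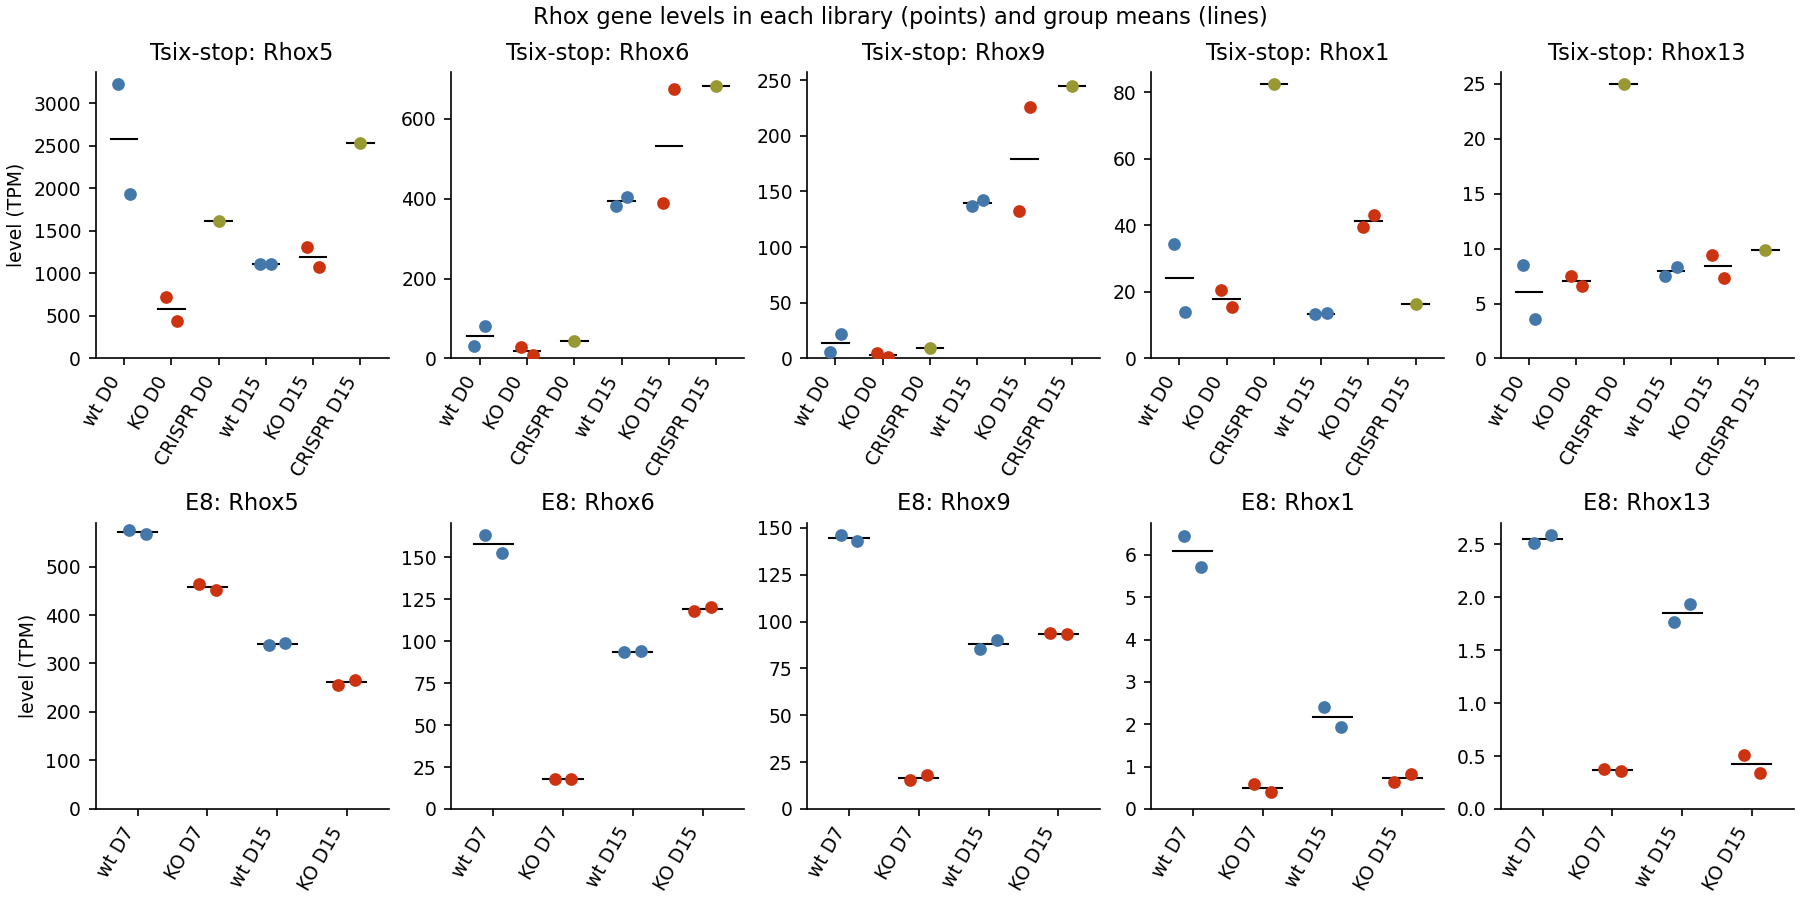
Level in TPM (y axis, linear from 0, scaled separately in each panel) of 5 *Rhox* genes in each library (points) with the group mean (line), for *Tsix*-stop (top) and E8 cells (bottom); wt is blue, KO red and the single CRISPR-control libraries olive. *Rhox6* and *Rhox9* follow the same order of groups within each line: the highest *Tsix*-stop value at D15 was 683 TPM for *Rhox6* and 245 TPM for *Rhox9*, both in the CRISPR control, and the E8 KO libraries at D7 were the lowest for both.

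Tests were run across the whole table, and a gene was called at a false discovery rate of at most 0.1 with a change of at least 2-fold. A minimum of 2.5 CPM (*Tsix*-stop) or 2.5 TPM (E8) in at least 2 libraries left 4 of the 31 members to test in *Tsix*-stop (*Rhox1*, *Rhox5*, *Rhox6*, *Rhox9*) and 5 in E8 (the same and *Rhox13*). Between KO and wt, 3 of 4 were called in *Tsix*-stop at D0, where 8.07% of all genes tested were called, and 1 of 4 at D15, where the background was 14.8%. In E8 these were 4 of 5 at D7 with a background of 17.5%, and 1 of 5 at D15 with 10.7%. *Rhox1* and *Rhox13* reached 2.5 TPM in E8 in the wt libraries of D7 alone, the group where they were high. Their E8 calls are therefore not independent of the filter. With 2.5 TPM required in at least 4 libraries neither was tested. Then 2 members were called at D7 (1993 of all 11853 genes) and 0 at D15 (1170 of 11853). Between D15 and D0 the counts in *Tsix*-stop were 4 of 4 in wt, with a background of 38%, and 3 of 4 in KO, with 27.6%. Between D15 and D7 in E8 they were 1 of 5 in wt, with 1.41%, and 2 of 5 in KO, with 6.11%. The wt call was *Rhox1*, so it too is not independent of the filter. With 2.5 TPM required in at least 4 libraries the wt count was 0 (155 of 11853). The change with day differed between KO and wt for 4 of 4 members in *Tsix*-stop (background 17.1%) and for 3 of 5 in E8 (7.25%). With 2.5 TPM required in at least 4 libraries the latter count was 2 (760 of 11853). The median log2 fold change of all genes tested lay between -0.01 and 0.01 in each *Tsix*-stop comparison of genotypes or days, and 0.10 and 0.09 in E8 KO against wt at D7 and D15.

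**Figure D2:**
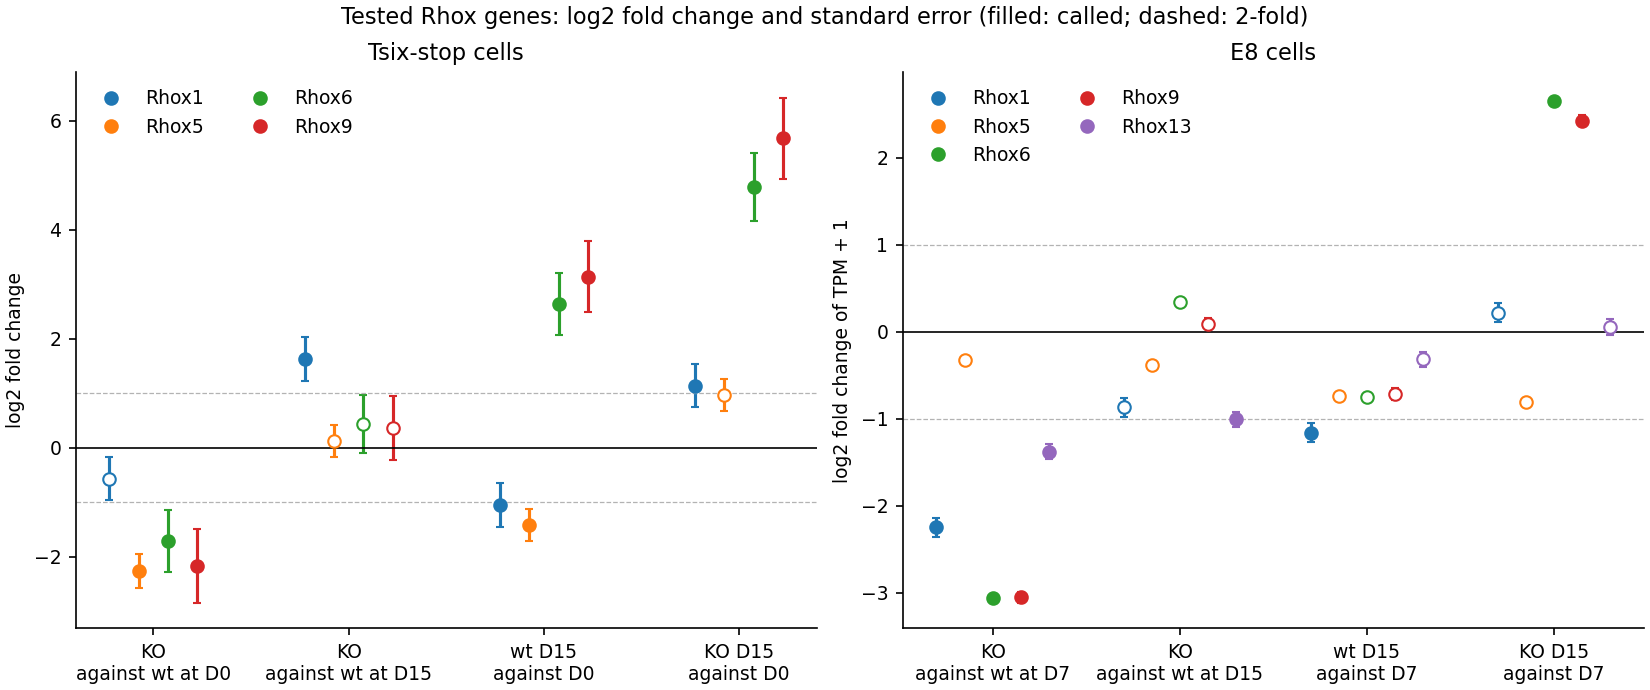
Log2 fold change (y axis) with its standard error for each tested *Rhox* gene in 4 comparisons (x axis) of *Tsix*-stop (left) and E8 cells (right, on the log2(TPM + 1) scale); filled points were called, open points were not, and dashed lines mark 2-fold. *Rhox6* and *Rhox9* lie side by side in each comparison, below 0 in KO against wt at the early day of each line and above 0, but open, at D15.

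*Rhox6* and *Rhox9*, the placental pair, were low in *Tsix*-stop ES cells and rose with differentiation in both genotypes. *Rhox6* had 634 and 1354 reads in wt at D0, 482 and 147 in KO at D0, 6318 and 6028 in wt at D15, and 6169 and 9648 in KO at D15. All 4 libraries at D15 were above all 4 at D0, and at D0 both KO libraries were below both wt libraries. By edgeR's quasi-likelihood test with Benjamini-Hochberg adjustment, *Rhox6* rose 6.24-fold in wt (log2 2.64 ± 0.56 SE, adjusted p = 0.00282) and 27.6-fold in KO (log2 4.78 ± 0.63, adjusted p = 0.000323). *Rhox9* followed the same course, with 297 and 921 reads in wt and 222 and 59 in KO at D0, and 5583 and 5216 in wt and 5178 and 7975 in KO at D15. It rose 8.84-fold in wt (log2 3.14 ± 0.65, adjusted p = 0.00236) and 51.3-fold in KO (log2 5.68 ± 0.74, adjusted p = 0.000325). The size of these rises rested on the D0 libraries: *Rhox6* in wt was at log2 2.14 without wt replicate 1 and 3.40 without replicate 2, and in KO at 5.96 without KO replicate 1 and 4.15 without replicate 2. The same omissions gave 2.498 and 4.30 in wt and 7.01 and 5.00 in KO for *Rhox9*, each still called.

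At D0 the pair was lower in KO than in wt. *Rhox6* fell by 1.70 ± 0.57 on the log2 scale (3.25-fold, edgeR adjusted p = 0.0854) and *Rhox9* by 2.17 ± 0.67 (4.50-fold, adjusted p = 0.0690). Of 17 alternative settings, 7 lost the call of *Rhox6* and 6 that of *Rhox9*. With the CRISPR control counted as wt, the log2 fold changes were -1.58 and -1.97 (edgeR adjusted p = 0.328 and 0.312). The calls also rested on single libraries. Without wt replicate 2 at D0 the adjusted p was 0.362 for *Rhox6* and 0.354 for *Rhox9*, without KO replicate 2 at D0 it was 0.271 and 0.242, and without either wt library at D15, which enter through the shared estimate of spread, it was 0.140 and 0.120. At D15 the pair was not called: *Rhox6* had a log2 fold change of 0.44 ± 0.53 and *Rhox9* of 0.37 ± 0.59, with KO at 107 and 175 CPM (counts scaled to library size) against 94.6 and 105 in wt for *Rhox6*, and at 89.4 and 145 against 83.6 and 91.1 CPM for *Rhox9*, where the genotypes overlapped. The change from D0 to D15 was larger in KO by 2.14 ± 0.77 for *Rhox6* (adjusted p = 0.0759) and 2.54 ± 0.89 for *Rhox9* (adjusted p = 0.0714). That difference was called in 9 of 17 alternative settings for each gene, with adjusted p-values up to 0.241 and 0.253.

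In E8 cells the KO libraries at D7 were far below wt for both genes, and not at D15. *Rhox6* was at 163 and 152 TPM in wt and 18.0 and 18.1 TPM in KO at D7, and at 93.6 and 94.1 TPM in wt and 118 and 120 TPM in KO at D15. *Rhox9* was at 146 and 143 TPM in wt and 15.3 and 17.9 TPM in KO at D7, and at 85.3 and 90.2 TPM in wt and 94.0 and 93.2 TPM in KO at D15. Thus at D7 the groups stood far apart, and by D15 KO was above wt for both, by a small margin. By limma on log2(TPM + 1), a scale on which changes of low genes are understated, *Rhox6* fell by 3.06 ± 0.04 at D7 (8.35-fold, adjusted p = 2.01e-09) and *Rhox9* by 3.05 ± 0.06 (8.30-fold, adjusted p = 1.82e-08). At D15 the log2 fold change was 0.34 ± 0.04 for *Rhox6* (adjusted p = 0.000121) and 0.09 ± 0.06 for *Rhox9* (adjusted p = 0.230), both under 2-fold. From D7 to D15 both rose in KO, by 6.31-fold and 5.39-fold, while wt had log2 fold changes of -0.74 and -0.71. The difference between these changes was 3.40 ± 0.05 for *Rhox6* (limma adjusted p = 2.13e-07) and 3.14 ± 0.09 for *Rhox9* (adjusted p = 1.15e-06), and it was called in each of 14 alternative settings. Other X-linked genes beyond 20 Mb had a median log2 fold change of -0.70 at D7 and -0.63 at D15 between KO and wt, against -3.06 and -3.05 for the pair at D7; this contrast with the chromosome was not tested.

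The 2 genes moved together. Across the 10 *Tsix*-stop libraries the log2 levels of *Rhox6* and *Rhox9* had a Pearson correlation of 0.998 (Spearman 0.988), and across the 8 E8 libraries of 0.995 (Spearman 0.976); the libraries share their groups, so this is a description. Per annotated exon length (1010 bases for *Rhox6* and 2488 for *Rhox9*), *Rhox6* was 2.79 to 6.14 times as high as *Rhox9* in *Tsix*-stop. By the deposited TPM it was 1.01 to 1.29 times as high in E8. The ratio depends on the lengths used, and those behind the E8 values are not known. The ratios of the 2 lines therefore cannot be compared. In *Tsix*-stop the ratio was higher at D0 (3.62 to 6.14) than at D15 (2.79 to 2.98). *Rhox5* and *Rhox6*, which lie next to each other, had a Pearson correlation of 0.308 in *Tsix*-stop and -0.157 in E8 (Spearman 0.285 and 0.214).

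*Rhox5*, the most abundant member, followed another course. It had 48229 and 24249 reads in *Tsix*-stop wt at D0, 9220 and 5811 in KO at D0, 13695 and 12318 in wt at D15 and 15589 and 11534 in KO at D15. Both KO libraries at D0 were well below both wt libraries, and at D15 the genotypes overlapped. *Rhox5* fell by 2.26 ± 0.31 in KO at D0 (4.80-fold, edgeR adjusted p = 0.00375) and kept this call without any 1 of the 8 libraries. At D15 the log2 fold change was 0.13 ± 0.29 (adjusted p = 0.764). In wt it fell by 1.42 ± 0.30 from D0 to D15 (2.67-fold, adjusted p = 0.00271). Without wt replicate 1 at D0 this was 0.95 in size and under the 2-fold minimum. In KO it had a log2 fold change of 0.97 ± 0.30 from D0 to D15 (adjusted p = 0.0213), just short of 2-fold, and the change with day differed between genotypes by 2.39 ± 0.42 (adjusted p = 0.00696).

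The CRISPR-control library at D0 had 22161 *Rhox5* reads, near the lower wt library, and that at D15 had 28659, above each wt and KO library of that day. With the CRISPR control counted as wt, the *Rhox5* difference at D0 was -2.05 with an adjusted p of 0.168 and no member was called, while the calls over all genes fell from 1059 to 20. In E8, *Rhox5* was at 574 and 567 TPM in wt and 464 and 452 TPM in KO at D7, and at 339 and 342 TPM in wt and 256 and 266 TPM in KO at D15. KO libraries were below wt at both days by a modest and even margin. The log2 fold change was -0.32 ± 0.03 at D7 and -0.38 ± 0.03 at D15 (limma adjusted p = 5.88e-05 and 3.10e-05), and the difference between days of -0.06 ± 0.05 was not called (adjusted p = 0.269).

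*Rhox1*, at the proximal end of the cluster, was the member called at D15 in *Tsix*-stop. It had 603 and 206 reads in wt and 303 and 239 in KO at D0, and 192 and 179 in wt and 549 and 540 in KO at D15. The genotypes overlapped at D0 and stood apart at D15. By edgeR it was 3.09-fold higher in KO at D15 (log2 1.63 ± 0.41, adjusted p = 0.0165), and without wt replicate 1 at D15 the adjusted p was 0.109. At D0 its log2 fold change was -0.56 ± 0.40 (adjusted p = 0.392), which became 0.28 without wt replicate 1. From D0 to D15 it fell by 1.05 ± 0.40 in wt (adjusted p = 0.0435) and rose by 1.14 ± 0.40 in KO (adjusted p = 0.0363). The fall in wt rested on replicate 1 at D0, without which it was 0.21 in size (adjusted p = 0.536). The rise in KO was 0.95 without KO replicate 2 at D0 (adjusted p = 0.149). The difference in the change with day was 2.19 ± 0.57 (adjusted p = 0.0263); it was 1.34 without wt replicate 1 at D0, and without wt replicate 1 at D15 its adjusted p was 0.102. Germline markers moved the same way at D15, with 6 of 12 tested markers called higher in KO and none lower (background 14.8%). They were led by *Dnd1*, an RNA-binding protein of primordial germ cells (log2 2.14 ± 0.17). In the CRISPR control at D15 the list summed to 754 TPM, against 750 and 770 in KO and 354 and 318 in wt. *Rhox1* was at 16.5 TPM there, against 39.5 and 43.1 in KO and 13.2 and 13.8 in wt. Whether these markers bear on *Rhox1* was not tested.

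E8 cells had *Rhox1* at 6.46 and 5.71 TPM in wt and 0.582 and 0.399 TPM in KO at D7, and at 2.41 and 1.94 TPM in wt and 0.646 and 0.824 TPM in KO at D15. There KO was lower at both days. *Rhox1* entered the E8 tests through the wt libraries of D7 alone. On the log2(TPM + 1) scale *Rhox1* fell by 2.25 ± 0.11 at D7 (limma adjusted p = 9.80e-07) and by 0.87 ± 0.11 at D15 (adjusted p = 0.000264), the latter under the 2-fold minimum. With a pseudocount of 0.1 the value at D15 was -1.45 and was called. Germline markers in E8 KO were lower for 7 of 13 tested at D7 and none higher (median log2 -1.01, background 17.5%). At D15 3 were lower and 1 higher (background 10.7%). The part of these markers in the values of *Rhox1* and *Rhox13* was not tested.

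*Rhox13*, a gene of germ cells at the distal end of the cluster, was at 2.51 and 2.59 TPM in E8 wt and 0.375 and 0.360 TPM in KO at D7, and at 1.77 and 1.94 TPM in wt and 0.512 and 0.335 TPM in KO at D15. The genotypes did not overlap at either day. *Rhox13* too entered the E8 tests through the wt libraries of D7 alone. It fell by 1.38 ± 0.09 in KO at D7 (limma adjusted p = 3.63e-06) and by 1.01 ± 0.09 at D15 (adjusted p = 3.19e-05), which is just past the 2-fold minimum. Without wt replicate 2 at D15 the latter was 0.96 in size and without KO replicate 2 it was 0.92, both uncalled. In *Tsix*-stop it passed no filter, with 148 and 52 reads in wt and 111 and 101 in KO at D0, and 108 and 108 in wt and 130 and 91 in KO at D15. The genotypes overlapped at both days.

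The remaining expressed members were near the limit of detection. *Rhox10*, a gene of spermatogonia, had 14 and 20 reads in *Tsix*-stop wt and 11 and 9 in KO at D0, and 24 and 30 in wt and 6 and 3 in KO at D15. KO was below wt at both days. *Rhox12* had 0 reads in each wt and KO library at D0, and 11 and 18 in wt and 4 and 29 in KO at D15. It was thus detected in both genotypes at D15 with no order between them. Tested with no filter on low counts, *Rhox10* was called lower in KO at D15 (log2 -2.44 ± 0.61, edgeR adjusted p = 0.00860). In that fit 2 members were called, and 3099 of all 20483 genes. The CRISPR control at D15 had 2 *Rhox10* reads, fewer than either KO library. This is 1 library near the limit of detection, and the cause of the differences in *Rhox10* was not tested. In E8, *Rhox10* did not exceed 1.03 TPM and *Rhox12* did not exceed 0.135 TPM.

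The *Rhox2* copies, genes of the placenta, summed to 149 and 47 reads in *Tsix*-stop wt and 87 and 51 in KO at D0, and to 35 and 26 in wt and 18 and 26 in KO at D15. Genotypes overlapped at D0, and each D15 library was below each D0 library. *Rhox2a* made up the largest part, with 67 and 18 reads in wt and 49 and 32 in KO at D0, and 15 and 7 in wt and 6 and 20 in KO at D15. The cast-genome counts gave a similar picture for the sum, at 224 and 57 in wt and 122 and 62 in KO at D0. In E8 the sum was at most 0.375 TPM. Of the other members, 17 stayed below 1 TPM in each group: the *Rhox3* and *Rhox4* copies, *Rhox2e*, *Rhox7a*, *Rhox8* and *Rhox11*. None of these exceeded 23 reads or 0.689 TPM in a library. *Rhox11*, a gene of the testis, and *Rhox3a*, *Rhox3e* and *Rhox4a* were listed at 0 in each library.

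The CRISPR-control library at D0 carried more RNA of the alpha subcluster and of *Rhox13* than any other. *Rhox1* had 1325 reads there (20.9 CPM against at most 9.31 CPM in wt at D0), *Rhox13* had 398 (6.28 against at most 2.28 CPM) and the *Rhox2* copies summed to 502 (7.92 against at most 2.30 CPM). *Rhox2a* had 226 reads, *Rhox2b* 55, *Rhox2c* 53, *Rhox2d* 31, *Rhox2f* 49, *Rhox2g* 33 and *Rhox2h* 55. In that library *Rhox6* (805 reads) and *Rhox9* (410 reads) lay between the wt libraries of D0. At D15 the CRISPR control had 219 *Rhox1*, 130 *Rhox13* and 11 *Rhox2* reads, while *Rhox6* (10364) and *Rhox9* (9160) were above each wt and KO library. With 1 library a day these differences have no replicate check.

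**Figure D3:**
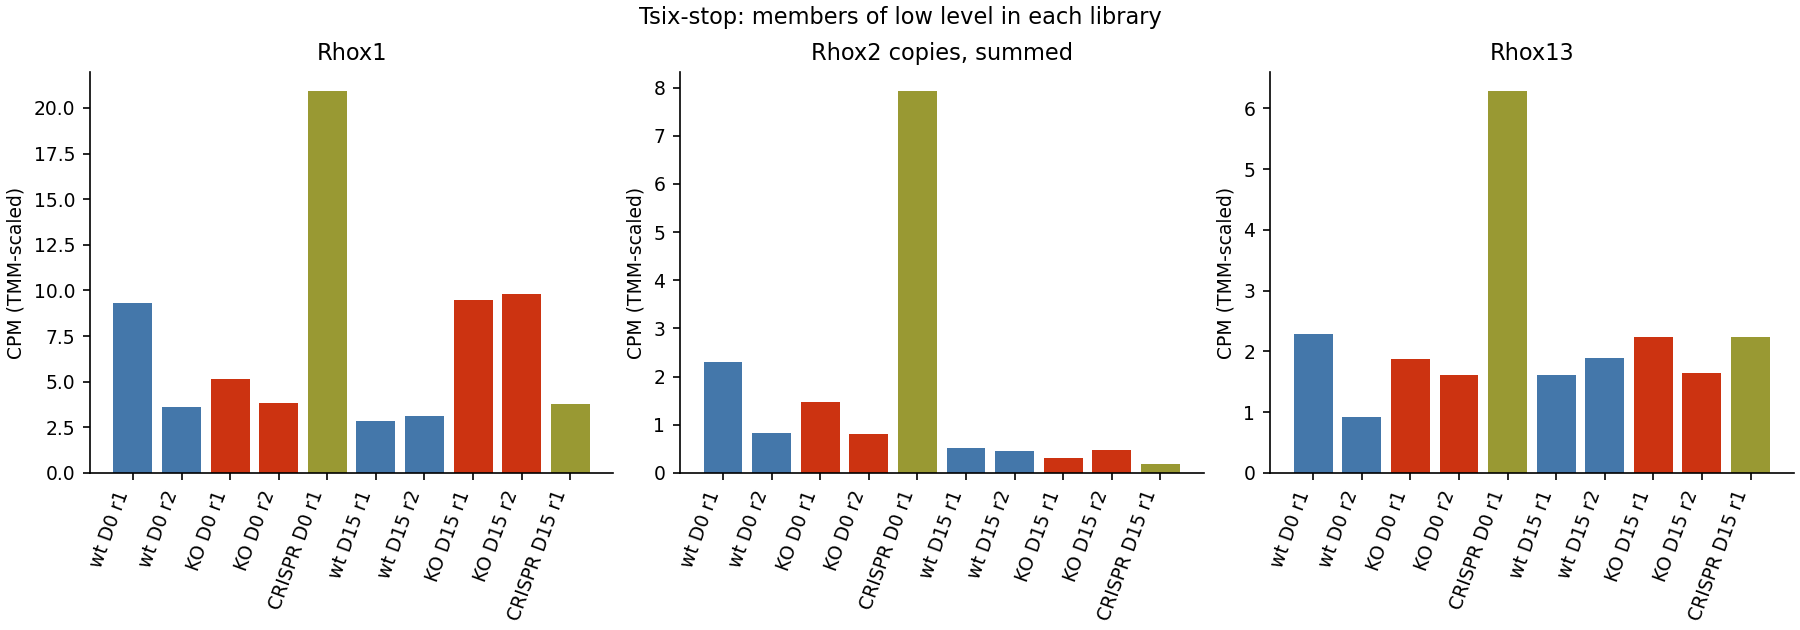
TMM-scaled CPM (y axis, from 0) of *Rhox1*, of the summed *Rhox2* copies and of *Rhox13* in each *Tsix*-stop library; wt is blue, KO red and CRISPR control olive. The CRISPR control at D0 is the highest bar in each panel, at 20.9, 7.92 and 6.28 CPM, and in *Rhox1* both KO libraries at D15 (9.48 and 9.80 CPM) stand above both wt libraries of that day (2.87 and 3.13 CPM).

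The allele of origin could be read for *Rhox6*, *Rhox9* and *Rhox1* in *Tsix*-stop cells. Among reads that cover a SNP, other X-linked genes from 20 Mb onward had a median stop-allele share of 39.6% to 51.0% per bin at D0 in wt and 48.9% to 51.4% in KO. At D15, after differentiation, it was 27.6% to 33.3% in wt and 40.0% to 49.4% in KO. The X with the stop was thus still read at D15 in both genotypes, and more in KO. *Rhox6* stood below these medians at both days. Its stop-allele share was 7.94% (95% Wilson interval 4.87% to 12.7%, 189 reads) and 16.3% (13.1% to 20.1%, 429 reads) in wt at D0, 12.1% and 14.3% in KO at D0, 11.5% (10.2% to 13.04%, 1908 reads) and 14.3% (12.8% to 16.0%, 1767 reads) in wt at D15, and 19.1% (17.4% to 21.0%, 1922 reads) and 17.3% (16.0% to 18.7%, 2955 reads) in KO at D15. The KO libraries at D15 were thus both above the wt libraries, and the intervals of the second KO and the second wt library just met. Intervals cover counting error and not the spread between libraries.

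*Rhox9* was read about evenly at D0 and mostly from cast at D15. Its stop-allele share was 53.1% (39.4% to 66.3%, 49 reads) and 41.6% (34.0% to 49.6%, 149 reads) in wt and 52.0% (25 reads) and 44.4% (9 reads) in KO at D0. It was 17.4% (15.2% to 19.9%, 995 reads) and 21.1% (18.5% to 24.0%, 849 reads) in wt and 33.7% (30.4% to 37.1%, 769 reads) and 23.5% (21.2% to 25.9%, 1252 reads) in KO at D15. Here the second KO library had an interval that overlapped that of the second wt library. *Rhox1* was not read mainly from cast at D15. Its stop-allele share was 62.2% (51.4% to 71.9%, 82 reads) in the first wt library at D0, with 36 of 48 reads from that allele in the second (interval 61.2% to 85.1%), 71.4% (52.9% to 84.7%, 28 reads) and 64.3% (45.8% to 79.3%, 28 reads) in wt at D15, and 67.7% (65 reads) and 62.4% (85 reads) in KO at D15. The lower bounds in wt at D15 were above the chromosome's median share there.

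**Figure D4:**
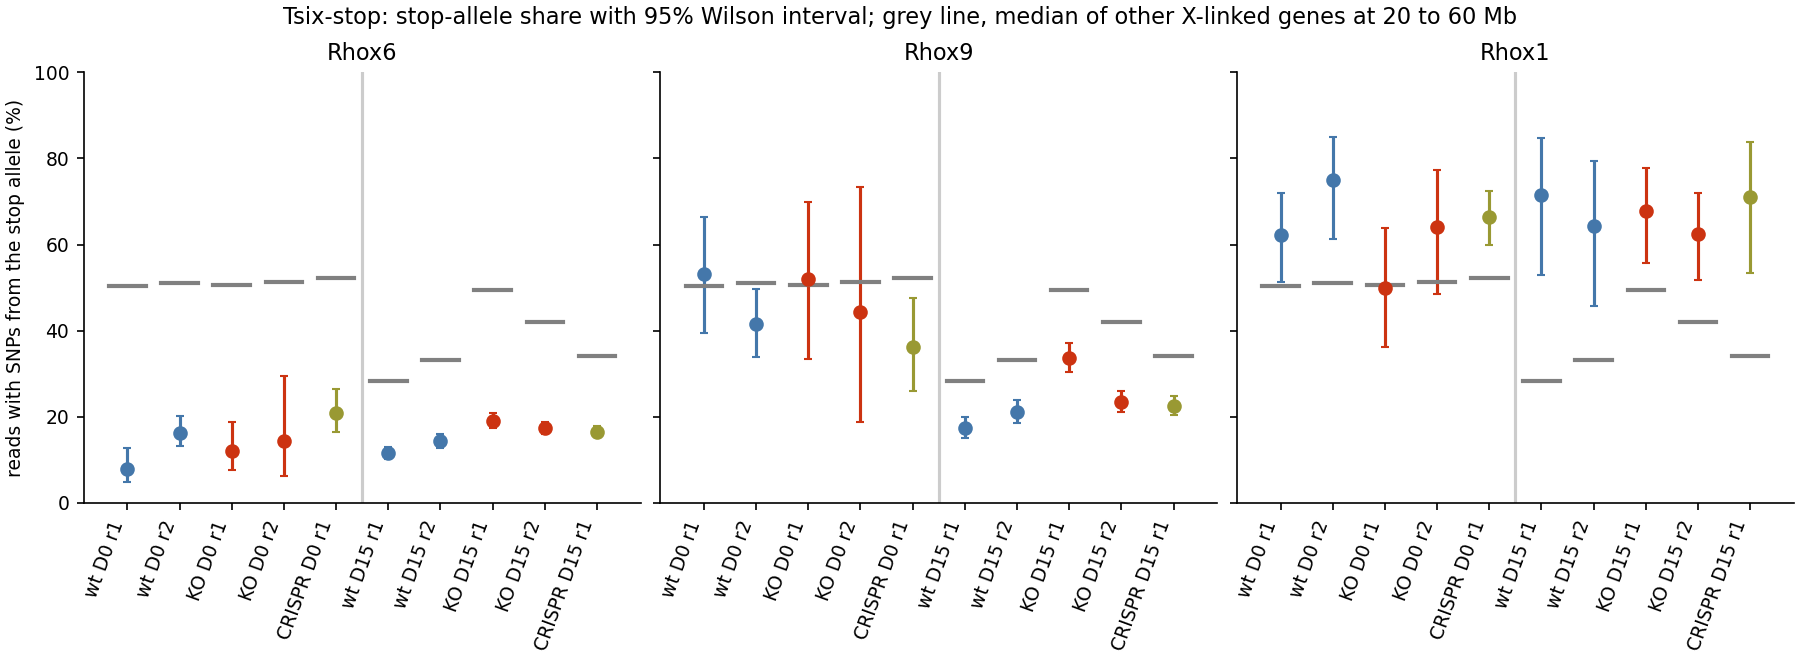
Share of SNP-covering reads from the stop allele in percent (y axis, 0 to 100) for *Rhox6*, *Rhox9* and *Rhox1* in each *Tsix*-stop library (points, wt blue, KO red, CRISPR control olive) with 95% Wilson intervals; grey lines are the median share of other X-linked genes between 20 and 60 Mb in the same library. *Rhox6* lies below the grey line in each library, *Rhox9* leaves it at D15, and *Rhox1* lies above it at D15, at 71.4% and 64.3% in wt.

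Tested by allele, *Rhox9* was called lower in KO at D0 on both alleles and *Rhox6* on cast reads. Of 3 members with enough SNP reads, 1 was called on stop-allele reads at D0 (*Rhox9*, log2 -2.44 ± 0.56, edgeR adjusted p = 0.0258), where 6.2% of genes were called, and 2 on cast reads (*Rhox6*, -1.87 ± 0.51, adjusted p = 0.0358, and *Rhox9*, -2.69 ± 0.74, adjusted p = 0.0384), where 8.69% were. *Rhox6* on stop-allele reads had a log2 fold change of -2.09 ± 0.73 (adjusted p = 0.117). At D15, 1 of 3 was called on stop-allele reads (background 16.1%) and 1 of 3 on cast reads (background 17.4%), and both were *Rhox1*, with log2 fold changes of 1.34 ± 0.33 (adjusted p = 0.0133) and 1.69 ± 0.55 (adjusted p = 0.0379). *Rhox1* was thus higher in KO on both alleles. Without wt replicate 2 or KO replicate 2 at D0 no member was called on either allele at D0, and the cast call of *Rhox1* at D15 was lost without either wt library or KO replicate 2 of that day. *Rhox5* had 0 SNP-covering reads in the 10 *Tsix*-stop libraries in spite of its depth, so its allele could not be read there.

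In E8 the allele tables, which were scaled separately, gave *Rhox6* at 53.6 and 56.1 TPM from BL6 and 259 and 278 TPM from cast in wt at D7, and at 27.2 and 29.1 TPM from BL6 and 147 and 169 TPM from cast in wt at D15. In KO it was at 16.6 and 19.9 TPM from BL6 and 0 and 1.04 TPM from cast at D7, and at 105 and 116 TPM from BL6 and 0.622 and 0 TPM from cast at D15. The BL6 share of *Rhox6* in wt, scaled to the autosomal median, was 42.7% to 49.7%. *Rhox9* was at 20.1 and 23.3 TPM from BL6 in wt and 6.07 and 4.84 TPM in KO at D7, and at 9.33 and 13.5 TPM in wt and 26.7 and 27.9 TPM in KO at D15, with at most 1.21 TPM from cast in a KO library.

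On BL6 reads alone, rescaled on autosomal genes, KO was therefore lower than wt at D7 and higher at D15. Of 2 members tested, 2 were called at D7, with a background of 13.5%, and 2 at D15, with 8.23%. *Rhox6* fell by 1.73 ± 0.07 at D7 (3.31-fold, limma adjusted p = 4.41e-07) and rose by 1.91 ± 0.07 at D15 (3.77-fold, adjusted p = 4.33e-07). *Rhox9* fell by 1.98 ± 0.14 at D7 (3.95-fold, adjusted p = 8.77e-06) and rose by 1.19 ± 0.14 at D15 (2.28-fold, adjusted p = 0.000267). Other X-linked genes beyond 20 Mb had a median log2 fold change on BL6 reads of 0.01 at D7 and 0.07 at D15. This comparison was added after the cast reads were seen to be missing. In KO the BL6 X was the only X read beyond 20 Mb, while in wt it was 1 of 2. The BL6 levels of the genotypes are therefore not like for like. *Kdm6a* and the missing cast X cannot be told apart here either. As deposited, the median BL6 share of autosomal genes was 16.7% to 19.8% per library. *Rhox5* was assigned to cast in each E8 library, at 462 to 1153 TPM against at most 0.237 TPM from BL6, and this included the KO libraries in which other genes of that part of the X had no cast reads. Its allele assignment therefore did not follow the chromosome and was not used.

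**Figure D5:**
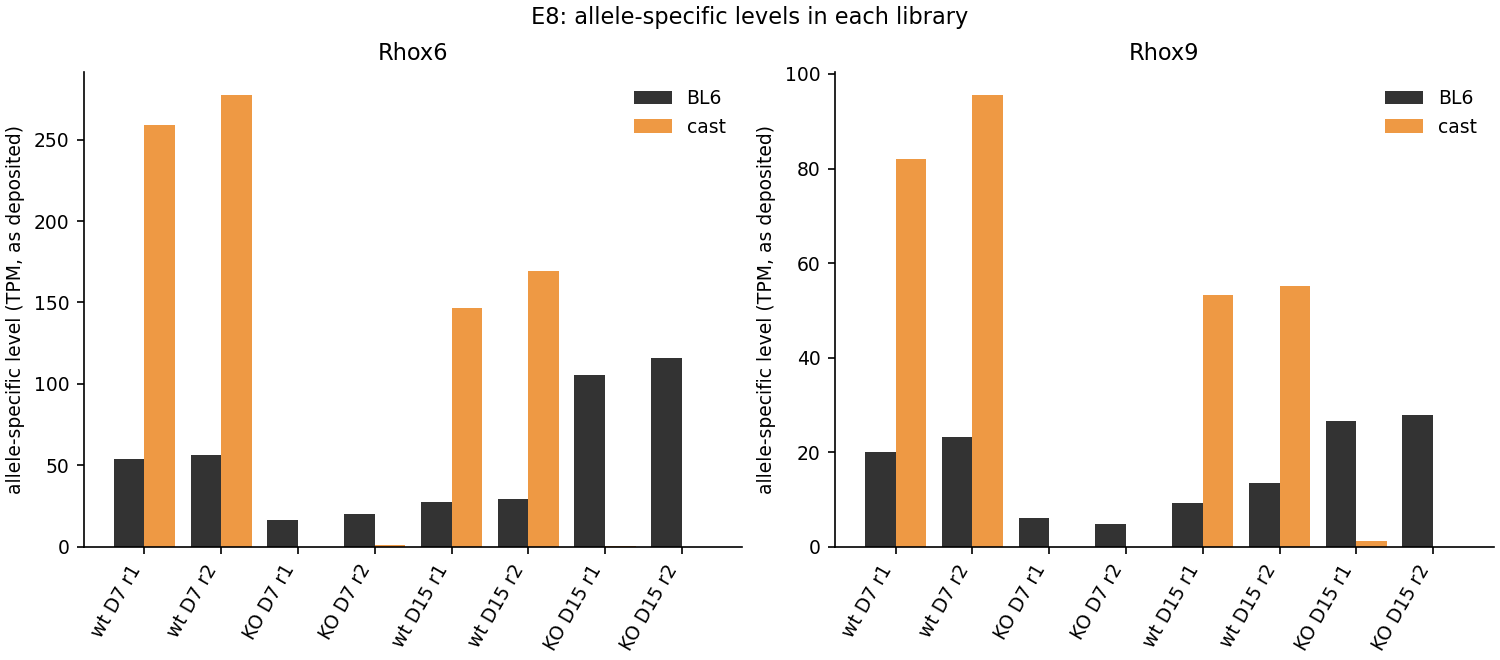
Allele-specific level in TPM as deposited (y axis, linear from 0) of *Rhox6* and *Rhox9* from BL6 (dark) and cast (orange) in each E8 library. Cast bars are at or near 0 in the 4 KO libraries, and the BL6 bars of KO are below wt at D7 (16.6 and 19.9 against 53.6 and 56.1 TPM for *Rhox6*) and above wt at D15 (105 and 116 against 27.2 and 29.1 TPM).

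Genes beside the cluster gave a reference for its position. The shares called over all genes are those given above for each comparison. Of the 5 nearest tested genes on each side (from *Rpl39* to *C1galt1c1*), 0 of 10 were called between KO and wt in *Tsix*-stop at D0 and 1 at D15 (*Rnf113a1*, log2 1.11 ± 0.24, edgeR adjusted p = 0.00905). In E8, 2 of 10 were called lower in KO at D7 and 2 at D15, the largest being *Rpl39*, a ribosomal protein gene, at D15 (log2 -1.24 ± 0.09, limma adjusted p = 8.88e-06). From D0 to D15 in *Tsix*-stop wt, when *Rhox6* and *Rhox9* rose, 1 of 10 was called (*Upf3b*, log2 -1.17 ± 0.12, edgeR adjusted p = 5.70e-05), and 0 of 10 were called with day in KO or in E8. For the difference in change with day, 1 of 10 was called in *Tsix*-stop (*Rnf113a1*, log2 1.13 ± 0.33, edgeR adjusted p = 0.0409), with the same sign as the *Rhox* genes, and 0 of 10 in E8.

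Among 16 genes listed as regulators of *Rhox* silencing (DNA methyltransferases and their cofactors, TET enzymes, and histone methyltransferases and demethylases), few were called. The share called over all genes between KO and wt was 8.07% at D0 and 14.8% at D15 in *Tsix*-stop. It was 17.5% at D7 and 10.7% at D15 in E8. In *Tsix*-stop KO at D0, *Dnmt3l*, a cofactor of de novo DNA methylation (log2 -1.89 ± 0.32, edgeR adjusted p = 0.00848), and *Dnmt3a*, a de novo methyltransferase (-1.64 ± 0.25, adjusted p = 0.00549), were lower, and the list median was -0.22 against 0.00 over all genes. At D15 *Kdm6b*, the other demethylase of the same mark, was lower (-1.16 ± 0.14, adjusted p = 0.000786). In E8, beside *Kdm6a*, *Tet1*, which oxidises methylated cytosine, was lower at D7 (2.01-fold, limma adjusted p = 1.05e-07) and *Dnmt3a* and *Tet1* at D15. Trophoblast and placenta markers, of the tissue where *Rhox6* and *Rhox9* are known, were counted beside the pair. In *Tsix*-stop KO 3 of 10 tested markers were lower at D0 (background 8.07%) and 5 of 10 at D15 (14.8%). In E8 KO 5 of 9 were higher and 1 lower at D7 (median log2 1.21, background 17.5%), when the pair was lower. At D15 6 of 9 were higher there (median 3.47, background 10.7%). From D0 to D15 in *Tsix*-stop, when the pair rose, 9 of 10 were called higher in wt (background 38%) and 8 of 10 in KO (27.6%). At D15 the list summed to 1503 TPM in the CRISPR control, 1030 and 1039 in wt, and 356 and 796 in KO. Whether the markers and the pair go together was not tested.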

How the data were processed

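RNA-seq libraries (polyA RNA, 75-base single-end reads) were aligned by the authors to mm10 with TopHat2 2.1.1 and Bowtie2 2.4.5 (per the labels), and uniquely mapped reads were assigned to alleles by SNPs. For *Tsix*-stop the authors deposited estimated counts per gene on the genome of strain 129, which carries the stop (51091148 to 68796172 per library), on the cast genome, and for reads with SNPs of each allele (9210228 to 12095544 in total). These were rounded, since 7.1% were not whole. For E8 they deposited TPM per gene, overall and by allele, so the depth is unknown. Repeated symbols were summed. *Tsix*-stop counts were tested in edgeR 4.0.16 (quasi-likelihood, TMM, 1 fit of 8 libraries by genotype and day), with 10 SNP reads in at least 2 libraries for allele fits, and E8 by limma 3.58.1 on log2(TPM + 1). *Tsix*-stop TPM used GENCODE exon lengths (23993 of 24346 symbols matched). R 4.3.3 and Python 3.11.15 were used, and scripts were tested on simulated data. Members whose mean reached 1 TPM in any group are given library by library, the others by range; from other lists the called genes that changed most are named. Alternatives were DESeq2 1.42.0, RLE scaling, other filters, pseudocounts and genome columns, a replicate block, the CRISPR control as wt, and leaving out each library. The CRISPR-control libraries (1 a day) entered no main test. With 2 against 2 libraries an exact test of 1 gene cannot reach a small p and none was made. Members and lists were chosen with earlier results of these data known.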

Additional observations from a re-analysis of the deposited data

Results flagged for a closer look

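The difference between KO and wt libraries in *Rhox* genes was not the same at both days, by the test of the difference itself (KO minus wt at the later day less the same at the earlier day, log2 scale). In *Tsix*-stop (edgeR) this difference was 2.19 for *Rhox1*, 2.39 for *Rhox5*, 2.14 for *Rhox6* and 2.54 for *Rhox9*, and in E8 (limma) it was 1.38 for *Rhox1*, 3.40 for *Rhox6* and 3.14 for *Rhox9*. Each is positive, with KO lower relative to wt at the earlier day than at the later. The differences of *Rhox5* (-0.06, adjusted p = 0.269) and *Rhox13* (0.37, under 2-fold) in E8 were not called. Those of *Rhox6* and *Rhox9* in *Tsix*-stop lost their call in 8 of 17 alternatives. *Rhox1* entered the E8 tests through the wt libraries of D7 alone, so its E8 value is not independent of the filter. With 2.5 TPM required in at least 4 libraries it was not tested, and 2 members were called in E8 (760 of all 11853 genes). In E8 the KO and the missing cast X reads cannot be told apart.

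*Rhox1* at D15 went in opposite directions in the 2 lines. The log2 ratio of group means between KO and wt was 1.68 in *Tsix*-stop, where both KO libraries were above both wt libraries, and -1.56 in E8, where both were below. This difference between lines was not tested. The wt cells of the lines differed at D15 too, with pluripotency markers at 17302 to 18152 TPM in E8 and 9596 to 10459 TPM in *Tsix*-stop. E8 KO also lacked cast reads over this part of the X.

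The single CRISPR-control libraries, which no main comparison uses, had members at more than 2 times the highest wt library of the same day. At D0 these were *Rhox1* (20.9 CPM), *Rhox13* (6.28 CPM), the summed *Rhox2* copies (7.92 CPM, 3.44 times the highest wt library) and the summed *Rhox4* copies (0.442 CPM from 28 reads). The summed *Rhox3* copies had 7 reads there and 0 in wt. At D15 it was *Rhox5* (495 CPM against at most 215 CPM in wt).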

How the results depend on the processing

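Of 829 gene values under alternatives, 746 kept their direction and their side of the threshold. Calls over all genes tested are given in brackets below. In *Tsix*-stop, the number of members called between KO and wt at D0 (3 in the main test) was 1 with the replicate block (1046 of 13121) and 0 with the CRISPR control as wt (20 of 13192). At D15 (1 in the main test) it was 2 under DESeq2 (2552 of 16944) and 2 with no filter (3099 of 20483). For the difference in change with day (4 in the main test) it was 2 under DESeq2 (2783 of 16158) and 2 with the replicate block (2241 of 13121). With the CRISPR control as wt it was 1 (564 of 13192). With no filter, 7 and 8 members were called between days in wt and KO, since 24 members were then tested. Over all 20483 genes, 7713 and 5665 were called there. In E8, KO against wt at D7 (4 in the main test) gave 2 with 2.5 TPM required in at least 4 libraries (1993 of 11853). At D15 (1 in the main test) it gave 0 with that filter (1170 of 11853), 2 with a pseudocount of 0.1 (1704 of 12452) and 4 with no minimum fold (9745 of 12452). For wt D15 against D7 (1 in the main test) it was 0 with that filter (155 of 11853) and 5 with no minimum fold (7301 of 12452). *Rhox1* and *Rhox13* were not tested under that filter.

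Leaving out 1 library gave 1 to 3 calls between KO and wt at D0 in *Tsix*-stop, 0 to 1 at D15, 2 to 4 for wt with day and 1 to 4 for the difference, and in E8 2 to 4 at D7, 0 to 1 at D15 and 0 to 1 for wt with day. On stop-allele reads at D0 it gave 0 to 2, and on cast reads 0 to 2 at D0 and 0 to 1 at D15. The replicate numbers do not pair wt with KO libraries: deviations of same-numbered wt and KO libraries had correlations of -0.0021 and -0.14 in *Tsix*-stop and 0.12 and -0.16 in E8. Those of the same genotype at both days were -0.21 for *Tsix*-stop wt, and -0.042 and -0.0019 in E8. For *Tsix*-stop KO, which come from separate clones that the labels do not name, the value was 0.23. The numbers may follow the clones there, which was not tested. With the replicate block, 1046 genes were called in *Tsix*-stop KO against wt at D0 in place of 1059, *Rhox6* and *Rhox9* had adjusted p-values of 0.125 and 0.106, and each E8 count of members was as in the main test. With crossed numbers, chosen after seeing the data, 1967 genes were called at D15 in *Tsix*-stop and 1342 in E8.

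Directions that reversed belonged to uncalled values. With the CRISPR control as wt, *Rhox5* at D15 was -0.37. Leaving out 1 library gave ranges that crossed 0: -0.038 to 0.31 for *Rhox5* and -0.016 to 0.70 for *Rhox9* at D15, -1.09 to 0.28 for *Rhox1* at D0, -0.65 to 0.54 for *Rhox1* at D0 and -0.46 to 0.57 for *Rhox9* at D15 on cast reads (*Rhox1* was 0.17 there without KO replicate 2), and -0.034 to 0.15 for *Rhox13* in E8 KO with day. The cause was not tested. For all genes, *Tsix*-stop calls at D0 were 1738 with no filter and 2665 with no minimum fold. Depth limits members below about 30 reads and allelic shares from under 50 reads.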
